A study of Mus musculus with 2 samples.

Results

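The 9 genes described here encode coat proteins of the hepatic lipid droplet and the enzymes and cofactors of its lipolysis: the perilipins Plin2, Plin3, Plin4 and Plin5, the CIDE proteins Cideb and Cidec, the adipose triglyceride lipase Pnpla2, its co-activator Abhd5 and its inhibitor G0s2. They were taken by symbol, and all 9 were among the 15348 genes with a value. Of the 9, 8 reached a mean level of 10 over both libraries, the minimum set for a gene to be called measured, as did 7602 genes in all; only Cidec fell short. They were proposed with results known, that is, selected on the OTD and control values of this same table, so their differences are a description and carry no test.

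The livers came from female NOG-TKm30 mice, an immunodeficient NOG line that carries the mutant herpes simplex thymidine kinase (HSVtk) clone 30 under the enhancer and promoter of mouse transthyretin, a gene of hepatocytes. Per the labels, both groups carried the transgene and were 16 weeks old. Mice of the OTD group were given the aromatic amine ortho-toluidine (OTD) at 0.6% during the first week and at 0.3% during the 3 weeks that followed, and the control group was kept at 0% over the same 4 weeks. Liver RNA of 5 OTD mice was mixed into 1 library, and that of 3 control mice into another. The labels name the strain as NOG-TKm30 throughout, except in the treatment protocol, which has C57BL. The names of both deposited columns include Wild, a term found nowhere in the labels, so the genotype given here rests on the labels alone. Each group thus had 1 pooled library and no replicate, so every difference below is between these 2 libraries, with an interval that covers counting error only.

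A lipid droplet is a core of triglyceride and cholesteryl ester under a single layer of phospholipid, on which perilipins sit and limit the access of lipases. Adipose triglyceride lipase, encoded by Pnpla2, cuts the first fatty acid from a triglyceride. Abhd5 activates that enzyme, G0s2 inhibits it, and Plin5 binds both the lipase and Abhd5 and links droplets to mitochondria. CIDE proteins promote droplet fusion, and Cideb also helps to load lipid onto very low density lipoprotein. In mouse liver several of these genes, among them Plin2, Plin4, Plin5 and G0s2, are known targets of PPAR-alpha, the nuclear receptor that responds to fatty acids and binds, with its partner RXR, to tandem AGGTCA hexamers separated by a single base (a DR1 element).

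Promoter windows of 300 bases, from 250 bases before to 50 bases after the annotated start, are shown for the 3 members lower by 2-fold or more in OTD (G0s2, Plin5 and Plin4), for the most abundant member (Plin2) and for the member with the highest ratio (Plin3). They are RefSeq sequences of build GRCm38.p6, all on the minus strand, at chr1:193273139-193273438 for G0s2, chr17:56117499-56117798 for Plin5 (the upstream of its annotated starts), chr17:56109733-56110032 for Plin4, chr4:86670010-86670309 for Plin2 and chr17:56290462-56290761 for Plin3. The Plin3 window lies inside the GENCODE M21 span of that gene, 56277476 to 56292873. Its RefSeq start thus differs from the GENCODE start used for distances below. Capitals mark every match, on either strand, to the AGGTCA hexamer, the CCAAT box (CCAAT), the GC box (GGGCGG), the TATA box (TATAAA) and the E-box (CACGTG).
G0s2: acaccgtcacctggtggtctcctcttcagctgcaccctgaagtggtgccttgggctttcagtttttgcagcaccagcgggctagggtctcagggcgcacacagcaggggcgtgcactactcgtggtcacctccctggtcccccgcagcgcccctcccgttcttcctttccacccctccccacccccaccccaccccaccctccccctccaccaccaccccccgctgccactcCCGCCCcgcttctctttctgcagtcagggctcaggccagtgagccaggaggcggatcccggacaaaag
Plin5: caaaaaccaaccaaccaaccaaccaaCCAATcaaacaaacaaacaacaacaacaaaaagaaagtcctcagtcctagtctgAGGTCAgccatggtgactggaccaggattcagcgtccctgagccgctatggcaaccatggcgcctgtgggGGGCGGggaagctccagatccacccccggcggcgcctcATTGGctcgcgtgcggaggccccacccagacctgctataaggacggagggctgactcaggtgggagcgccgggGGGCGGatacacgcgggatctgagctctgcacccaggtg
Plin4: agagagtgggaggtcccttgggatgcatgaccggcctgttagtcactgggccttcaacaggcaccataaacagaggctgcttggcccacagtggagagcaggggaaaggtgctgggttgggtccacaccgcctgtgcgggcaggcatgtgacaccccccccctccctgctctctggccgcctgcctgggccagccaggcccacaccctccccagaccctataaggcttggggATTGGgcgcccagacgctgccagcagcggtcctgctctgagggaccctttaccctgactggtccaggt
Plin2: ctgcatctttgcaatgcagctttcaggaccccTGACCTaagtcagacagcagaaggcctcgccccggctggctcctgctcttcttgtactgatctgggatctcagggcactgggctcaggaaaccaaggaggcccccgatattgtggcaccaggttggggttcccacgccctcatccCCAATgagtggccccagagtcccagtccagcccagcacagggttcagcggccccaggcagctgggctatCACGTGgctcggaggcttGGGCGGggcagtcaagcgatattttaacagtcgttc
Plin3: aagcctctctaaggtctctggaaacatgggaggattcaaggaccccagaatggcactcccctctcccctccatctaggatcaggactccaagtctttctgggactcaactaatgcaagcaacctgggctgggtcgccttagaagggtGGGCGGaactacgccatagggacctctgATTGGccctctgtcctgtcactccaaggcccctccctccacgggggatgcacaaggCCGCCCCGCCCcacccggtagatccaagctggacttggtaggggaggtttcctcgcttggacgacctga

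No window of the 9 genes held the DR1 element AGGTCANAGGTCA or its relaxed form AGGNCANAGGNCA, which were found in 0.0396% and 0.381% of all 32851 mouse windows of the same length. A single AGGTCA stood in the windows of Plin5, Plin2 and Abhd5, and in 16.3% of all windows. It began 170 bases before the start in Plin5 and 218 bases before it in Plin2, where it lies on the opposite strand. CCAAT boxes stood in the windows of all 4 perilipins and in 37.4% of all windows, GC boxes in 7 of the 9 genes and in 35.7% of all windows, and a TATA box in Cideb and in 13.6% of all windows. Plin2 held an E-box that spanned its start, a motif of 7.15% of all windows. In Plin3 a pair of the 3 GC boxes overlapped by a base. These matches describe letters in a short window and say nothing of sites farther away.

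The table behind these values held 14685193 reads for the OTD library and 13569189 for the control library. Levels are the deposited normalized values, CPM (reads scaled to a common total) with a further scaling factor, on which 3 reads correspond to 0.200 in OTD and 0.225 in control. All 10 hepatocyte markers were measured, led by Alb at 69694 in OTD and 81661 in control, so the libraries hold the labelled tissue. Their summed level in OTD was 0.879 times that in control, against 0.956 for 10 stellate cell, 0.931 for 10 Kupffer cell, 0.942 for 10 sinusoidal endothelial and 1.25 for 7 erythroid markers. Of the 4 measured erythroid markers, Hba-a2 differed most, with 142 in OTD and 80.6 in control. Ratios of the others were 1.07 for Hba-a1, 1.05 for Hbb-bt and 1.06 for Alas2. Of 10 adipocyte markers 5 had a value and 2 were measured, Lpl and Car3. Plin1, the perilipin of fat cells, had 0 reads in OTD and 2 in control, and Fabp4 stood at 3.27 in OTD and 3.16 in control. Lpl had 20.9 in OTD and 15.6 in control, a ratio of 1.34 (1.12 to 1.61). The list's sum was carried by Car3, which hepatocytes also express (1685 in OTD, 1401 in control). In bulk RNA, fewer cells of a type and less RNA per cell cannot be told apart. The ribosomal RNA precursor Rn45s took 2.66% of OTD reads and 1.47% of control reads, and its part in the levels below was examined by rescaling without it.

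G0s2, Plin5 and Plin4 were lower by 2-fold or more in the OTD pool, no member was at least 2-fold higher, and Plin3 came nearest to that mark. Among all measured genes 0.21% were at least 2-fold lower and 0.21% at least 2-fold higher. Of the 8 measured members 5 had a log2 ratio below 0 and 3 above, with a median of −0.32, where 51.6% of all measured genes lay below 0 and the median was −0.0063. Log2 ratios are OTD over control after adding a pseudocount of 1. At 1.5-fold, 3 members were lower and 1 higher, against 0.908% and 1.51% of measured genes, and at 3-fold G0s2 alone was lower and 0 were higher, against 0.0263% and 0.0526%. The signs of all 9 members were the same under each rescaling and pseudocount tried. This is a weak check, since a pseudocount cannot change a sign and the rescalings were small.

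**Figure D1:**
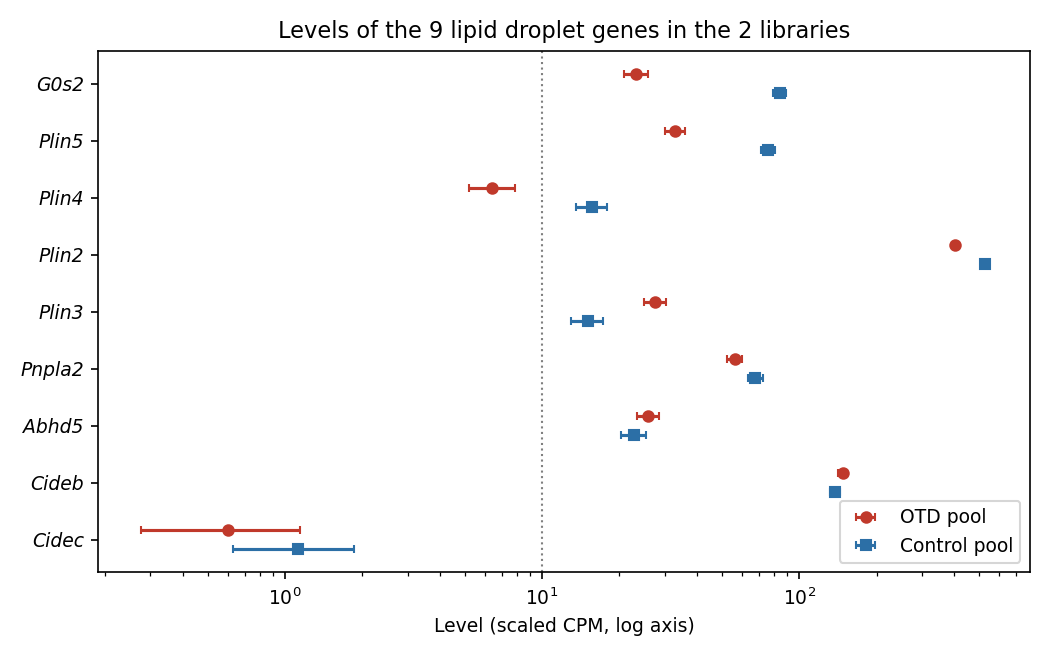
Levels of the 9 genes in the OTD pool (red circles) and the control pool (blue squares), in scaled CPM on a log axis, with 95% exact Poisson intervals of the reads; the dotted line is the minimum mean of 10. G0s2 stood at 23.2 in OTD and 83.9 in control, Plin3 at 27.6 in OTD and 15.0 in control, and Cidec near 1 in both.

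G0s2, the inhibitor of adipose triglyceride lipase, had a level of 23.2 in the OTD library (348 reads) and 83.9 in the control library (1117 reads). It was 3.61-fold lower in OTD, with a 95% counting interval from 3.20 to 4.08. Only Cyp4a14, a PPAR-alpha target, had a lower log2 ratio among the 7602 measured genes, at −2.31 against −1.81 for G0s2. Among 3232 genes whose mean lay between 0.5 and 2 times that of G0s2, the central 95% of log2 ratios ran from −0.40 to 0.50 and 0 were as low. G0s2 (chromosome 1, 193272161 to 193273217, minus strand, 2 exons) lies wholly within Lamb3 on the other strand, and whether the authors' counting used strand is not given in the sources used here. Lamb3 itself stood at 2.14 in OTD and 3.23 in control, well under the levels of G0s2.

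Plin5, the perilipin of oxidative tissues that ties droplets to mitochondria, had a level of 32.9 in OTD (493 reads) and 76.0 in control (1011 reads). It was 2.31-fold lower in OTD (2.07 to 2.57), the eighth lowest log2 ratio of the measured genes at −1.18. Plin4, a perilipin known mainly from fat and muscle, was close to the minimum level, at 6.41 in OTD (96 reads) and 15.6 in control (208 reads). Its mean of 11.0 passed the minimum of 10 through the control library alone. It was 2.44-fold lower in OTD, with a wider interval from 1.90 to 3.14, and its log2 ratio of −1.17 stood next to that of Plin5 in rank. The level of Plin4 relative to Plin5, per transcript length, was 0.0672 in OTD and 0.0710 in control, a ratio of 0.946 (0.718 to 1.24), so no unequal difference between these genes was detectable at this depth. With a pseudocount of 10, which weighs on low genes, Plin4 had a log2 ratio of −0.64 and no longer passed 2-fold.

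The genes nearest to these members in log2 ratio were sought among all other measured genes, over 2 libraries only. Nearest to G0s2 were Cyp4a10 (−1.41), a PPAR-alpha target, A1bg (−1.35) and the clock repressor Nr1d1 (−1.32), each at least 0.40 above it, so G0s2 stood between Cyp4a14 and these with no close match. Nearest to both Plin5 and Plin4 were the major urinary protein gene Mup1 (−1.22), Tsku (−1.12), which encodes a secreted liver protein, and the interleukin-1 receptor gene Il1r1 (−1.11). Mup1 and the Cyp4a genes belong to families of closely similar copies, among which reads may be split.

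**Figure D2:**
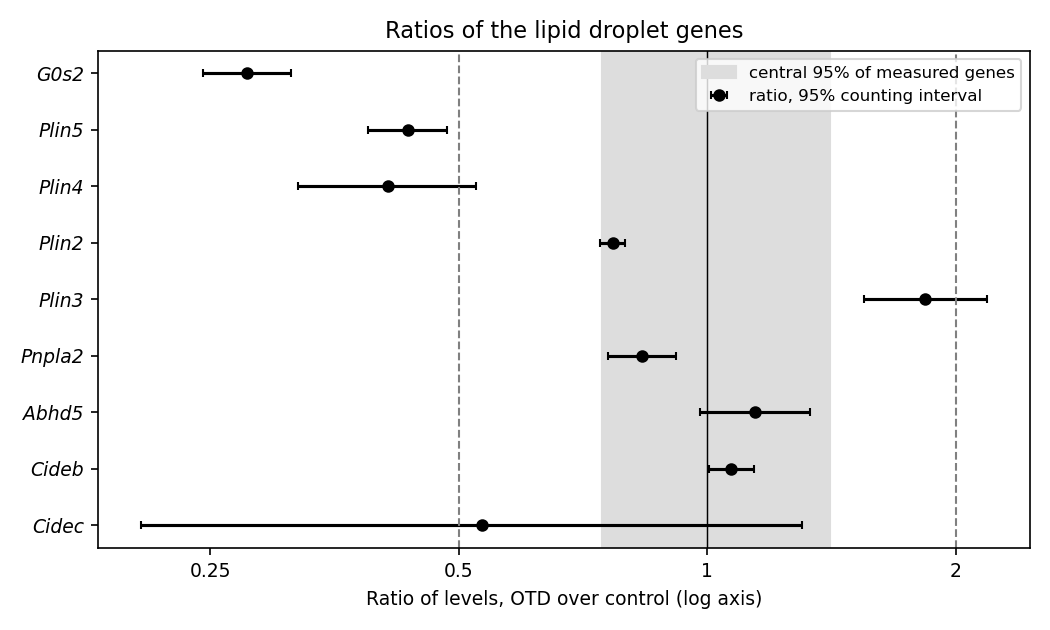
Ratio of levels, OTD over control, for the 9 genes on a log axis, with 95% Clopper-Pearson intervals from the reads of both libraries; grey marks the central 95% of measured genes and dashed lines 2-fold. G0s2, Plin5 and Plin4 lie left of the grey band, Plin3 lies right of it at 1.84, and the interval of Cidec spans 1.

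Plin2, the main coat protein of hepatocyte droplets and the most abundant member, had a level of 405 in OTD (6061 reads) and 527 in control (7019 reads). It was 1.30-fold lower in OTD (1.26 to 1.35), at rank 238 from the lowest of the measured genes. Among 463 genes within 0.5 to 2 times its mean, 22 had a log2 ratio as low. Plin3, a perilipin of most tissues that sits in the cytosol and moves onto new droplets, differed in the other direction, with 27.6 in OTD (413 reads) and 15.0 in control (200 reads). It was 1.84-fold higher in OTD (1.55 to 2.18), at rank 38 from the highest, and 20 of 4168 genes of similar level were as high. With a pseudocount of 10 its log2 ratio of 0.84 became 0.59.

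Divided by the length of the longest coding transcript in GENCODE M21, the perilipins summed to 240 per kb in OTD and 324 per kb in control, a ratio of 0.739. Plin2 made up 89.5% of that sum in OTD and 86.1% in control, and Plin5 6.92% in OTD and 11.8% in control. Plin3 took 3.16% in OTD and 1.27% in control, and Plin4 0.465% in OTD and 0.837% in control. The order of the perilipins was Plin2, Plin5, Plin3, Plin4 in both libraries. Plin3 relative to Plin2 was 2.39 times as high in OTD as in control (2.01 to 2.86), and Plin5 relative to Plin2 was 0.565 times as high (0.503 to 0.633). These ratios within a library do not depend on the scaling between libraries, whereas the shares depend on the transcript length assumed.

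**Figure D3:**
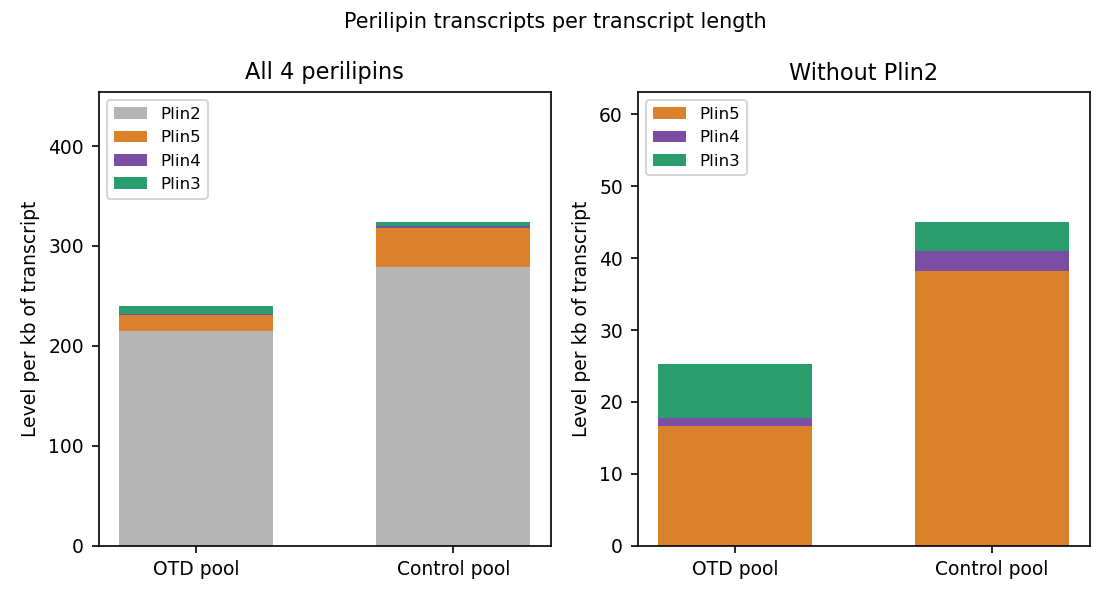
Perilipin levels per kb of transcript, stacked, in the OTD pool and the control pool, with Plin2 (left panel) and without it (right panel). The sum was 240 in OTD and 324 in control, and Plin5 gave 16.6 in OTD and 38.2 in control, while Plin3 gave 7.57 in OTD and 4.12 in control.

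Pnpla2, the lipase itself, was slightly lower in OTD, at 56.2 (842 reads) against 67.5 in control (899 reads), 1.20-fold lower (1.09 to 1.32). Abhd5, its co-activator, had 25.9 in OTD (388 reads) and 22.7 in control (302 reads), and its ratio of 1.14 had an interval that included 1 (0.980 to 1.33). Abhd5 overlaps an antisense gene, A730085K08Rik, by 950 bases, and the reads of that gene were not analysed here. Both log2 ratios, −0.26 and 0.18, lay within the central 95% of all measured genes, −0.42 to 0.49. On the scale of levels per kb of the longest coding transcript, G0s2 stood at 1.25 times Pnpla2 in OTD and 3.74 times in control. Such multiples depend on the length assumed, unlike their ratio between the libraries. G0s2 per Pnpla2 was thus 3.01-fold lower in OTD (2.57 to 3.51), and G0s2 per Abhd5 4.12-fold lower (3.38 to 5.02). Plin5 stood at 0.774 times Pnpla2 in OTD and 1.49 times in control, 1.92-fold lower (1.66 to 2.22). Abhd5 stood at 0.383 times Pnpla2 in OTD and 0.279 times in control, a ratio of 1.37 (1.14 to 1.64). So per transcript of lipase, the OTD library held fewer transcripts of the inhibitor and of Plin5 and more of the co-activator; whether the proteins followed was not measured.

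Cideb, the CIDE protein of hepatocytes, had 148 in OTD (2212 reads) and 138 in control (1840 reads), a ratio of 1.07 (1.004 to 1.14). It shares 1451 bases with Nop9 on the other strand, which stood at 17.2 in OTD and 19.3 in control. Cidec, which drives the growth of large droplets in fat and in fatty liver, was barely present, with 9 reads in OTD and 15 in control. Its ratio of 0.533 had an interval from 0.206 to 1.30, so these few reads could not show a difference. Per kb of the longest coding transcript, Plin2, Cideb and G0s2 were the 3 most abundant members in both libraries. They stood at 214, 122 and 26.7 in OTD and at 279, 114 and 96.3 in control. Pnpla2 (21.4) stood above Plin5 (16.6) in OTD and under it in control (25.7 for Pnpla2, 38.2 for Plin5). At that length this was the only exchange of places in the order of the 9. Abhd5 and Plin3 came next, at 8.21 and 7.57 in OTD, where their counting intervals overlapped (7.41 to 9.07 for Abhd5, 6.86 to 8.34 for Plin3), and at 7.19 and 4.12 in control. Plin4 and Cidec were the lowest, at 1.11 and 0.350 in OTD and 2.71 and 0.655 in control. The order depends on the length assumed. For Pnpla2 the longest coding transcript has 2625 bases and the median one 1392. By median length, Pnpla2 stood above Plin5 in both libraries and above G0s2 in OTD, so the exchange with Plin5 was not seen.

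Plin4, Plin5 and Plin3 lie on the minus strand of chromosome 17, at 56100591 to 56109803, 56111601 to 56117596 and 56277476 to 56292873 in GRCm38, with 1797 bases between Plin4 and Plin5 and 160 kb between Plin5 and Plin3. The other 13 measured genes within 200 kb of them had log2 ratios from −0.35 to 0.17, with a median of −0.062. Lrg1, which lies 2081 bases from Plin5 on its far side from Plin4 and encodes a secreted leucine-rich glycoprotein, had a level of 164 in OTD and 204 in control, a ratio of 0.805 (0.762 to 0.851). Hdgfrp2, whose end overlaps Plin4 by 17 bases on the other strand, had 17.0 in OTD and 15.5 in control. Ticam1, 689 bases from Plin3, had 16.8 in OTD and 15.6 in control, a ratio of 1.08 (0.897 to 1.31). The differences of the perilipin genes in this region were therefore larger than those of each measured neighbour, in both directions. The other members lie apart from these and from each other, Plin2 on chromosome 4, Cidec on 6, Pnpla2 on 7, Abhd5 on 9 and Cideb on 14.

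**Figure D4:**
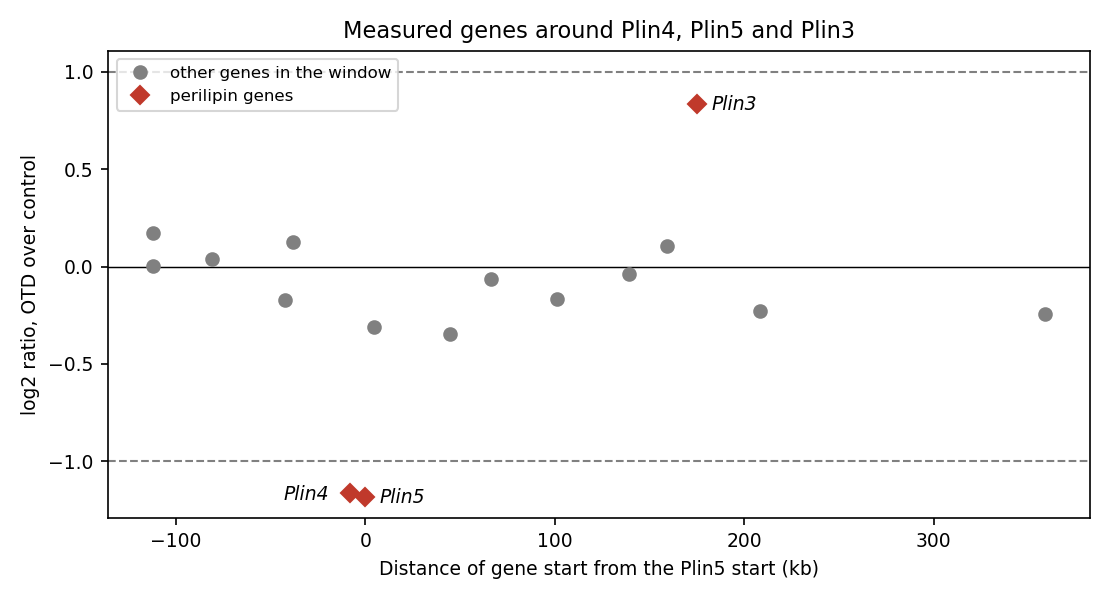
Log2 ratio, OTD over control, of the measured genes around Plin4, Plin5 and Plin3, against the distance of each gene's start from that of Plin5 in kb; red diamonds are the perilipins and dashed lines 2-fold. The 13 other genes lie between −0.35 and 0.17, Plin4 and Plin5 near −1.2 and Plin3 at 0.84.

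Other genes of droplet metabolism were taken from lists chosen with earlier results of these data known. Among all measured genes 0.21% were at least 2-fold lower, 0.21% at least 2-fold higher and 51.6% below 0. Among 15 measured lipases of neutral lipid, 0 passed 2-fold in either direction and the median log2 ratio was −0.062, turning to 0.010 after rescaling without Rn45s. Scaled to the same total, with or without Rn45s, 1 lipase passed as higher. Mgll, which cuts the last fatty acid from glycerol, had 164 in OTD and 208 in control, 1.27-fold lower (1.20 to 1.34). The carboxylesterase gene Ces1g had 297 in OTD and 149 in control, a log2 ratio of 0.99, and Ces1d, the most abundant lipase, had 1080 in OTD and 1025 in control. Among 14 measured genes of triglyceride synthesis, 0 passed 2-fold, 10 were below 0 and the median was −0.16. Gpam, the mitochondrial acyltransferase that starts glycerolipid synthesis, had a log2 ratio of 0.58 (244 in OTD, 162 in control), and Lpin1, a phosphatidate phosphatase, was 1.51-fold lower (1.46 to 1.57; 362 in OTD, 547.5 in control).

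Of 14 other measured lipid droplet proteins 0 passed 2-fold and 8 were below 0. Their median of −0.045 ranged from −0.062 to 0.027 over the alternatives, and was above 0 after scaling to the same total with or without Rn45s. Fitm2, which helps to form droplets, had 30.0 in OTD and 41.8 in control, 1.39-fold lower (1.23 to 1.58). Hsd17b13, a droplet protein of hepatocytes, had 299 in OTD and 350 in control, 1.17-fold lower (1.12 to 1.22). Nsdhl, a cholesterol synthesis enzyme found on droplets, was 1.52-fold higher (1.29 to 1.80; 25.6 in OTD, 16.8 in control). Of 10 genes of fatty acid uptake and lipoprotein assembly, 9 were below 0 and 0 passed 2-fold, with a median of −0.19. For both lists, the shares over all measured genes were 51.6% below 0, 0.21% at least 2-fold lower and 0.21% at least 2-fold higher. The fatty acid translocase Cd36 had 29.1 in OTD and 47.5 in control, 1.63-fold lower (1.44 to 1.85), and the transporter Slc27a2 1013 in OTD and 1541 in control, 1.52-fold lower (1.49 to 1.55).

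PPAR-alpha targets without the droplet genes had 24 measured members, of which 24 were below 0 and 4 at least 2-fold lower, with a median of −0.36. Among all measured genes 51.6% were below 0 and 0.21% at least 2-fold lower. Of 10 hepatocyte markers 8 were below 0, with a median of −0.17. G0s2, Plin5 and Plin4 were farther below 0 than the median of the PPAR-alpha targets, Plin2 (−0.38) was near it, and Plin3 was above 0. Cyp4a14 had 141 in OTD and 701 in control, 4.97-fold lower (4.74 to 5.22). Of 16 measured transcription regulators 0 passed 2-fold, 10 were below 0 and the median was −0.17. Hnf4a, the nuclear receptor that maintains hepatocyte identity and the most abundant regulator on the list, had 669.9 in OTD and 948 in control, 1.42-fold lower (1.38 to 1.45). Ppara itself, named after its value was seen, had 321 in OTD and 381 in control, 1.19-fold lower. Its relative Ppard differed in the other direction, with 35.3 in OTD and 23.8 in control, 1.48-fold higher (1.29 to 1.71). Srebf1, a driver of lipogenesis, was 1.62-fold higher (1.54 to 1.71; 267 in OTD, 164.5 in control), and Mlxipl, which encodes ChREBP, 1.43-fold higher (1.35 to 1.52; 199 in OTD, 139 in control).

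Several of these genes also vary with feeding and time of day. Of 10 feeding and fasting genes 2 were at least 2-fold higher, against 0.21% of all measured genes. They were the insulin-repressed Igfbp1 (538 in OTD, 253 in control) and Ppp1r3g, a glycogen-targeting subunit known to vary with feeding (62.6 in OTD, 24.4 in control). Pck1, the gluconeogenic enzyme, had 3979 in OTD and 4162 in control. Of 13 clock genes 1 was at least 2-fold lower, against 0.21% of all measured genes. This was Nr1d1, with 18.5 in OTD and 47.6 in control, 2.57-fold lower (2.23 to 2.98). The repressor gene Per1 had 26.1 in OTD and 36.3 in control, 1.39-fold lower (1.21 to 1.59), whereas the repressor gene Cry2 had 30.6 in OTD and 21.6 in control, 1.42-fold higher (1.22 to 1.65). The most abundant clock gene, Bhlhe40, had 124 in OTD and 118 in control. In all, 7 of the 13 clock genes were below 0 and 6 above, where 51.6% of all measured genes lay below 0. The median of the clock genes, −0.0027, ranged from −0.050 to 0.068 over the alternatives. The sources used here give neither the hour of death nor the feeding state, and their part in the differences of the droplet genes was not tested.

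**Figure D5:**
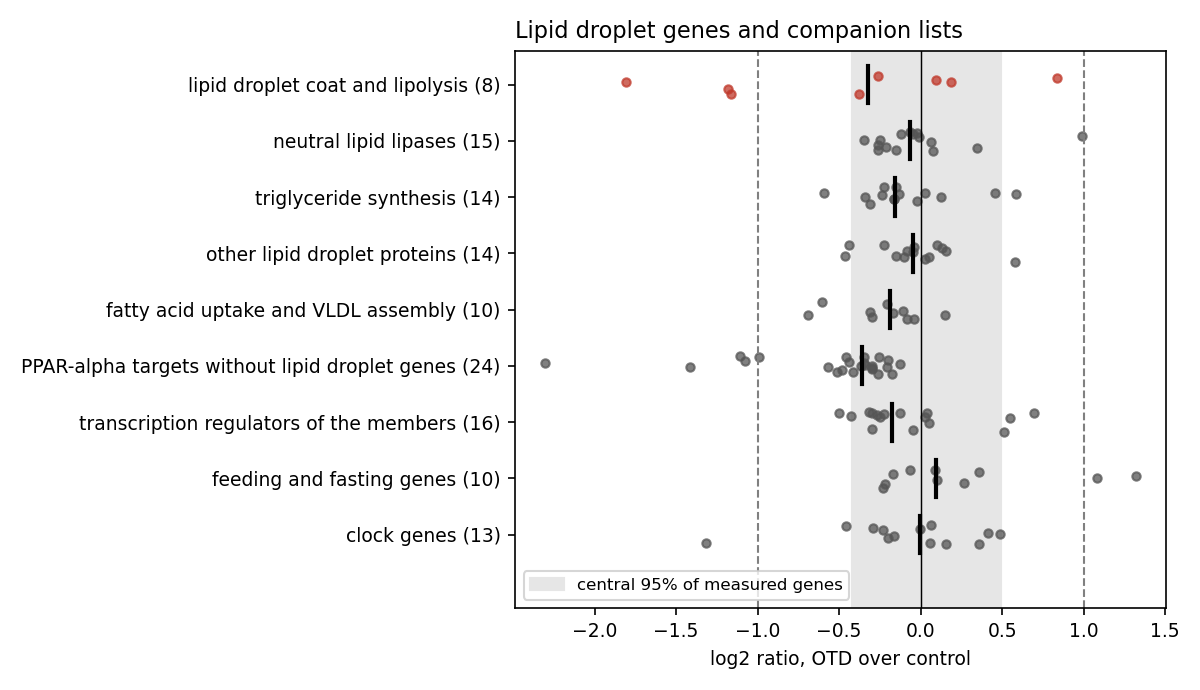
Log2 ratio, OTD over control, of each measured gene (dots) in the droplet genes (red) and 8 companion lists (grey), with the median of each list (black bar), the central 95% of measured genes (grey band) and 2-fold (dashed lines); numbers in brackets are genes. The 8 droplet genes run from −1.81 to 0.84, while all 24 PPAR-alpha targets lie below 0, as do 51.6% of all measured genes.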

How the data were processed

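The authors deposited 1 normalized signal per gene symbol and library, which their file name calls normalized counts. The submitters' processing notes name the mm10 build, Trimmomatic (0.38), RSEM, Bowtie2 and edgeR without saying what each was used for; the annotation, gene filter and strand setting are not given there. The labels' protocols describe ribosomal RNA depletion and a directional kit, starting from 200 ng of RNA. Columns were assigned by Ctrl or OTD in their names, which also hold the word Wild, unexplained in the labels. All deposited values (100%) were a whole number of times the smallest value of their column (tolerance 1e-06), so whole reads were recovered; the columns were CPM divided by 1.02 in OTD and 0.981 in control.

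Ratios carry 95% Clopper-Pearson intervals, levels exact Poisson intervals, and ratios between genes exact conditional intervals of the table of reads; reads are not independent molecules, and all cover counting error only. A single library per group leaves no residual degrees of freedom, so no test on the recovered reads could be run and no gene has a p-value. A gene counted as higher or lower at a log2 ratio of 1 or more in size. The ratios and intervals were tested on simulated reads that held counting error only. That test therefore says nothing of variation between mice or pools. Coordinates and lengths came from GENCODE M21 (GRCm38, the mm10 assembly), which matched 96.0% of symbols, and promoters from RefSeq, matched for 9 of 9 members. Members, lists and rules were chosen with earlier results of these data known. The text names the members, from each list the most abundant gene and the 3 with the largest log2 ratio in size, the 3 genes nearest in ratio to each member past 2-fold, and neighbours, not all of them printed. Computation was in Python 3.11.15 with scipy 1.17.1, pandas 2.3.3, numpy 2.4.6 and matplotlib 3.10.9.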

Additional observations from a re-analysis of the deposited data

How the results depend on the processing

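No paired analysis was possible because each group had 1 library, and for the same reason no library could be left out. Over 6 pseudocounts and scalings, all 54 log2 ratios of the members kept their sign. A pseudocount cannot change a sign, and the scalings put the median of all measured genes only between −0.010 and 0.065. The kept signs thus say little about Cidec or Abhd5, whose counting intervals include a ratio of 1. A pseudocount of 10 gave −1.50 for G0s2, −1.002 for Plin5, −0.64 for Plin4 and 0.59 for Plin3, since it shrinks low genes by construction. Plin2 was −0.33 scaled to the same total and −0.31 without Rn45s. Of the 3 members at least 2-fold lower, 2 passed at a mean of at least 50, 2 with a pseudocount of 10 and 1 at 3-fold. At 1.5-fold 1 member passed as higher. Among all genes, 9 of 2884 were at least 2-fold lower at a mean of at least 50, and 10 of 7602 with a pseudocount of 10. At 3-fold 2 of 7602 were lower, and at 1.5-fold 115 were higher. The median of the members ranged from −0.38 to −0.25. Companion genes at least 2-fold lower numbered 5, and 3 with a pseudocount of 10, 2 at a mean of at least 50, 9 at 1.5-fold and 1 at 3-fold. Without a minimum mean, or with a minimum of 1, 6 were lower. Companion genes at least 2-fold higher numbered 2, and 1 at a mean of at least 50, 5 at 1.5-fold and 0 at 3-fold. They numbered 3 when scaled to the same total, with or without Rn45s, and 3 without a minimum mean or with a minimum of 1. The share of Plin2 among perilipins was 94.9% in OTD and 93.9% in control by median transcript length, and 85.8% in OTD and 83.2% in control without length. Plin4 and Cidec, with the fewest reads of the members, are limited by depth.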

Other observations

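Some relatives of the droplet genes stood under the minimum mean and were picked here after seeing their values. Pnpla3, a lipase relative of Pnpla2 that sits on droplets and follows lipogenic signals, had a level of 8.28 in OTD (124 reads) and 2.63 in control (35 reads), a ratio of 3.15 (95% counting interval 2.15 to 4.73). Hilpda, another inhibitor of adipose triglyceride lipase, had 24 reads in OTD and 18 in control, a ratio of 1.19 (0.617 to 2.32). Hormone-sensitive lipase (Lipe) had 8.95 in OTD and 7.96 in control, a ratio of 1.12 (0.865 to 1.46), and the droplet-forming protein gene Fitm1 had 6.21 in OTD and 9.17 in control, a ratio of 0.678 (0.512 to 0.895).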
